A study of Mus musculus with 4 samples.

Results

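Translation initiation factors (eIFs) are encoded by 48 protein-coding mouse genes whose symbol starts with Eif followed by a digit, after leaving out the eIF2 kinases (Eif2ak) and the eIF4E-binding proteins (Eif4ebp). These genes were looked up by gene identifier in a list of N6-methyladenosine (m6A) peaks of splenic natural killer (NK) cells, and 43 of them carried 88 of the 20727 distinct peaks. The samples were wild-type C57BL/6 mice, and the list rests on 2 libraries of m6A-immunoprecipitated RNA and 2 of input RNA. The animals had received a plasmid that expresses IL-15 (pLIVE-IL-15), which expands NK cells, before the cells were sorted, so the peaks are those of IL-15-expanded cells and no untreated mice were analysed here. In MeRIP-seq, poly(A) RNA is fragmented, fragments that carry m6A are pulled down with an antibody, and a peak is a stretch with more immunoprecipitate than input reads.

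Every peak has 1 fold enrichment and 1 peak-calling p-value for all 4 libraries together. No value per library was analysed here, so the depth of the libraries is unknown, no error between replicates could be computed, and no difference between genes was tested. The interval after a share is its 95% Wilson interval, for counting error alone. A peak shows where the mark was found and is not a measure of how much mRNA or protein was present. All 6 NK cell markers examined (Ncr1, Klrb1c, Klrk1, Eomes, Prf1 and Nkg7) had a peak, as did all 3 macrophage markers (Csf1r, Adgre1 and Lyz2), all 3 T cell markers (Cd3d, Cd3e and Cd3g) and the haemoglobin gene Hbb-bs. The log10 p of the most significant peak ranged from -322 to -25 among the NK cell markers and from -46.8 to -6.35 among the T cell markers. At Hbb-bs it was -2440, and at Csf1r it reached -322. The highest fold enrichment per gene was 1.36 to 3.28 among the NK cell markers and 5.69 to 31.6 among the T cell markers. It was 1.38 to 1.9 among the macrophage markers and 2.69 at Hbb-bs. Genes that mark other cells thus also had peaks. The part of such cells in the peaks described here was not tested, and these markers were chosen after their values were seen.

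Initiation is the step at which the ribosome finds the start codon of an mRNA. In outline, eIF2 brings the initiator tRNA to the small ribosomal subunit, together with eIF1, eIF1A, eIF5 and the large scaffold eIF3, while eIF4F (the cap-binding protein eIF4E, the helicase eIF4A and the scaffold eIF4G) recruits the mRNA through its cap. The exchange factor eIF2B reloads eIF2 with GTP, eIF5B joins the ribosomal subunits, and eIF6 keeps the large subunit from joining too early. The factors also meet m6A itself, since the methyltransferase METTL3 has been described to bind eIF3h on the mRNA it methylates, and eIF3 to bind m6A in 5' UTRs. Activated lymphocytes raise protein synthesis when they grow and divide.

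Short sequences under some of the most significant peaks were printed, chosen because they hold GGAC. GGAC is a frequent form of the consensus around m6A, and the 8 sites printed here, 5' to 3' on the strand of the gene with GGAC in capitals, are the GGAC nearest to the centre of the most significant peak in the 8 genes with the most significant peaks that hold it. They were read from the longest coding transcripts of GENCODE M21, with 10 bases on each side, and the positions are in GRCm38.
Eif5a: tacagactggGGACcagccccttc
Eif4a1: gccaagggatGGACatcttgtttt
Eif3m: agcacacatcGGACatttggaaaa
Eif4g1: ccagccgcctGGACtgcagggggg
Eif6: tcctgcctctGGACtttggctcat
Eif4g3: gaagtactgtGGACcagaaaaatc
Eif4g2: ttctctgctgGGACagtgagaatg
Eif3g: acttggccaaGGACaagactactg

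The sites of Eif5a (chr11:69916905-69916928, minus strand), Eif4a1 (chr11:69667366-69667389, minus strand), Eif4g1 (chr16:20692485-20692508, plus strand), Eif6 (chr2:155820052-155820075, minus strand), Eif4g3 (chr4:138206847-138206870, plus strand) and Eif4g2 (chr7:111071351-111071374, minus strand) lay in the 3' UTR, in the last exon. The GGAC began 435, 94, 64, 37, 703 and 1328 nt past the stop codon, respectively. The sites of Eif3m (chr2:104999814-104999837, minus strand) and Eif3g (chr9:20894844-20894867, minus strand) lay in the coding sequence, 106 and 147 nt before its end. The capitals continue to GGACT at Eif4g1 and Eif6. The list places a peak and not a modified base, so none of these adenosines is known from the data to be methylated. Some genes with equally significant peaks are left out by the rule. The most significant peaks of Eif1 (log10 p -105), Eif3h (-50.8), Eif3e (-50) and Eif4b (-29.5) held no GGAC. That of Eif3i (-34.9) did not lie on the longest coding transcript and was not searched.

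A peak was more usual in these genes than in the annotation as a whole, but the folds were modest. The 43 genes with a peak were 89.6% of the 48 (77.8 to 95.5), and 46.3% of all 21951 protein-coding genes had a peak. The level of the mRNAs, without which no peak can be called, was not analysed here. A peak with a p-value under 0.001 was found in 39 of the 48 genes (81.2%), and in 34% of all protein-coding genes. Of the 88 peaks 69 (78.4%) passed that limit, and 62.3% of the peaks of all protein-coding genes did. The median fold enrichment was 1.83 (order-statistic interval 1.66 to 2.0, interquartile range 1.43 to 2.71), and it was 2.37 (1.68 to 6.64) over the 18250 peaks of all protein-coding genes. For 52 peaks (59.1%) the enrichment was below 2-fold, against 39.7% of all coding peaks. In the plot of fold enrichment against significance the most significant peaks sit at low folds.

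**Figure D1:**
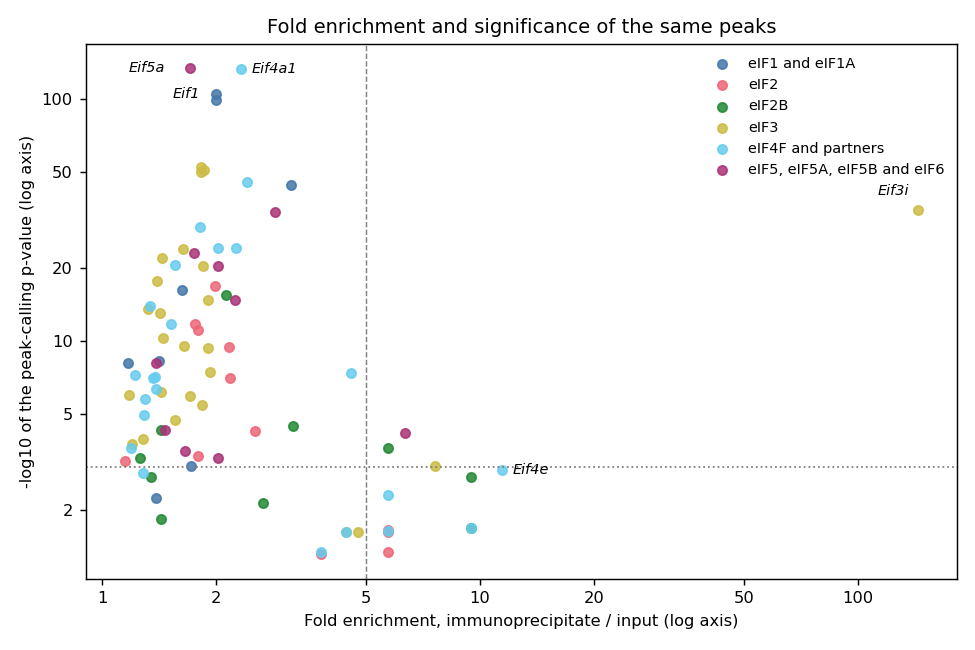
Each point is 1 of the 88 peaks of initiation factor genes, with its fold enrichment (immunoprecipitate over input, log axis) against the negative log10 of its peak-calling p-value (log axis), coloured by factor. The dashed line marks a fold enrichment of 5 and the dotted line a p-value of 0.001, and the peaks of Eif5a, Eif4a1 and Eif1 at the top have fold enrichments of 1.71 to 2.33.

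Of the genes, 16 had 1 peak, 13 had 2, 11 had 3, 2 had 4 (Eif1 and Eif2s1) and 1 had 5 (Eif4h). No peak was assigned to Eif1ad, Eif2s2, Eif3d, Eif4e1b or Eif4e3. Exons of 2 of these genes lay under peaks assigned to another gene. A peak assigned to a, the agouti gene on the plus strand (chromosome 2, 154872456 to 154876623) had 1.32-fold enrichment (log10 p -7.39) and covered 539 nt of Eif2s2 exons on the minus strand. Another, assigned to the overlapping gene Gm20696 on the same strand (chromosome 6, 99625255 to 99625464) had 2.24-fold enrichment (log10 p -5.18) and lay wholly in exons of Eif4e3. Eif2s2 encodes eIF2 beta and Eif4e3 a relative of eIF4E. With these 45 of the 48 genes had a peak over an exon, and Eif1ad, Eif3d and Eif4e1b, the last an eIF4E relative of the germ line, had none.

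In the following, values in parentheses are the fold enrichment and the log10 p of a peak, and positions are those of its centre. Counts of genes with a peak in each group stand against 46.3% of all protein-coding genes. The scanning factors eIF1 and eIF1A help the ribosome recognise the start codon, and 4 of the 5 genes grouped here had 8 peaks. The gene without a peak was Eif1ad, while Eif1, Eif1b, Eif1a and Eif1ax all had one. None of the 8 peaks had a fold enrichment of 5 or more, against 14.8% of the 88 peaks and 29.5% of all coding peaks. Eif1 (ENSMUSG00000035530, chromosome 11, 100319885 to 100322096, plus strand) stood out by coverage. Its 4 peaks, with fold enrichments of 3.16, 2.0, 1.17 and 2.0 in 5' to 3' order and log10 p of -44.3, -105, -8.14 and -99, together covered 93.3% of the 1322 nt of its longest coding transcript. Its relative Eif1b had a single peak (fold enrichment 1.63, log10 p -16.3) of 500 exonic nt whose centre lay 5 nt past the stop codon. The 2 genes for eIF1A differed in position. Eif1ax had peaks in the 5' UTR (1.39, log10 p -2.24) and 87 nt past the stop codon (1.41, log10 p -8.23), while the peak of Eif1a (1.72, log10 p -3.05) was centred 1282 nt past it.

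The eIF2 genes, which include the 3 subunits of the factor that delivers initiator tRNA, had 12 peaks in 5 of 6 genes, with a median fold enrichment of 2.17. Eif2s1 encodes the alpha subunit, whose phosphorylation shuts initiation down under stress. It had a run of peaks in the first part of its 3' UTR, centred 111, 319 and 528 nt past the stop codon, with fold enrichments of 1.15, 1.79 and 2.53. The middle peak was the most significant of the gene (log10 p -11.1), and the peak in its 5' UTR was enriched 5.69-fold at a log10 p of only -1.34. The gamma subunit has an X-linked and a Y-linked gene, and their peaks lay far apart. The peak of Eif2s3x (2.18, log10 p -7.04) was centred 2077 nt past the stop codon, near the end of a 3' UTR of 2152 nt. That of Eif2s3y (2.16, log10 p -9.42) was centred 110 nt past it, in a 3' UTR of 343 nt. A second Eif2s3y peak (3.79, log10 p -1.31) touched only a retained-intron transcript. Eif2a encodes an alternative factor for initiator tRNA. Its most significant peak (1.99, log10 p -16.8) had its centre 75 nt before the end of the coding sequence, and 2 others (5.69 each, log10 p -1.63 and -1.66) touched only retained-intron transcripts.

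Neither peak of Eif2d, a factor that acts in reinitiation and ribosome recycling, lay on its longest coding transcript. The more significant (1.76, log10 p -11.7, chromosome 1, 131176499 to 131176947) overlapped 0 nt of any Eif2d exon and 449 nt of exons of Rassf5 on the opposite strand. The other (1.79, log10 p -3.35) touched 39 nt of a protein-coding isoform and none of the longest coding transcript.

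All 5 genes of eIF2B, the exchange factor that is the target of the integrated stress response, had a peak, 10 in all. Their median fold enrichment (2.39) was the highest of the 6 groups and close to the 2.37 of all coding peaks. Of the 10 peaks 5 had a p-value under 0.001, against 62.3% of all coding peaks. The values behind the group median were uneven. Eif2b2 (beta subunit) had the most significant peak of the group (2.12, log10 p -15.5), centred 168 nt past the stop codon. Eif2b3 (gamma subunit) alone held the group's 3 peaks of 5-fold or more, at 9.48, 9.48 and 5.69, with log10 p of -2.75, -1.69 and -3.6. The other subunits lay lower. Eif2b1 (alpha) had peaks of 1.26 and 1.43 in the 3' UTR (log10 p -3.27 and -4.3) and 2.66 in the 5' UTR (log10 p -2.13), Eif2b4 (delta) of 3.19 (log10 p -4.47) and 1.43 (log10 p -1.84), and Eif2b5 (epsilon, the catalytic subunit) a single peak of 1.35 with a log10 p of -2.74.

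The scaffold eIF3 is the largest of the factors, and 13 of its 14 genes had a peak, 25 peaks in all with a median fold enrichment of 1.71. The exception was Eif3d, the subunit that can bind the cap. The most significant peaks belonged to Eif3m (1.83, log10 p -52.3), Eif3h (1.86, log10 p -50.8) and Eif3e (1.83, log10 p -50), which were alike in fold and significance. Each crossed the stop codon. Eif3h, the subunit described to contact METTL3, carried its only peak there (chromosome 15, 51786558 to 51787966, 329 exonic nt, centre 6 nt past the stop codon). Peaks with a centre within 200 nt of the stop codon were found in 11 of the 14 genes, namely Eif3a, Eif3c, Eif3e, Eif3f, Eif3g, Eif3h, Eif3i, Eif3j2, Eif3k, Eif3l and Eif3m. The median 3' UTR of the eIF3 genes was 184 nt long, shorter than that window. By peaks, 12 of the 22 placed eIF3 peaks were near the stop codon, against 22.3% of all placed peaks. For all coding genes with a 3' UTR of at most 300 nt the share of peaks was 49.7%. The share by gene was not computed over all coding genes, and the Eif3j2 peak had a log10 p of only -1.63. Eif3a, the largest subunit, had 3' UTR peaks of 1.28 (log10 p -3.94) and 1.65 (log10 p -9.56) at 142 and 725 nt past the stop codon. Eif3a and Eif3c also had a peak deep in the coding sequence, 1488 and 1852 nt before its end, with fold enrichments of 1.32 (log10 p -13.6) and 1.45 (log10 p -10.3). The other peak of Eif3c (1.42, log10 p -13.1) was centred 7 nt before that end. Eif3k had 3 peaks of almost the same fold enrichment (1.85, 1.9 and 1.9, log10 p -20.5, -9.37 and -14.7), centred in the 3' UTR, the coding sequence and the 5' UTR of its 909 nt transcript. Eif3f had its most significant peak in exon 1 (1.4, log10 p -17.7), with peaks of 1.18 (log10 p -5.98) and 4.74 (log10 p -1.63) in the 3' UTR. Eif3g had a peak across the stop codon (1.64, log10 p -24.1) and another on a retained-intron transcript (1.43, log10 p -6.14). A further peak of Eif3m (7.59, log10 p -3.03) also touched a retained-intron transcript and no protein-coding isoform. The loosely bound subunit eIF3j has a pair of genes, Eif3j1 with peaks of 1.93 and 1.84 (log10 p -7.46 and -5.43) and Eif3j2 with a peak of 4.43 (log10 p -1.63). Single 3' UTR peaks were found at Eif3b (1.2, log10 p -3.76) and Eif3l (1.71, log10 p -5.9).

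The highest fold enrichment of all 48 genes was 144, at Eif3i (log10 p -34.9, chromosome 4, 129598380 to 129598917). Eif3i encodes a subunit folded as a beta-propeller. This peak of 538 nt lay in a retained-intron transcript and touched 0 nt of its protein-coding isoforms, while the peak on the mRNA itself had a fold enrichment of 1.44 (log10 p -22.1) and ended past the stop codon. In the plot of fold enrichment by factor it is the open circle far above the rest.

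**Figure D2:**
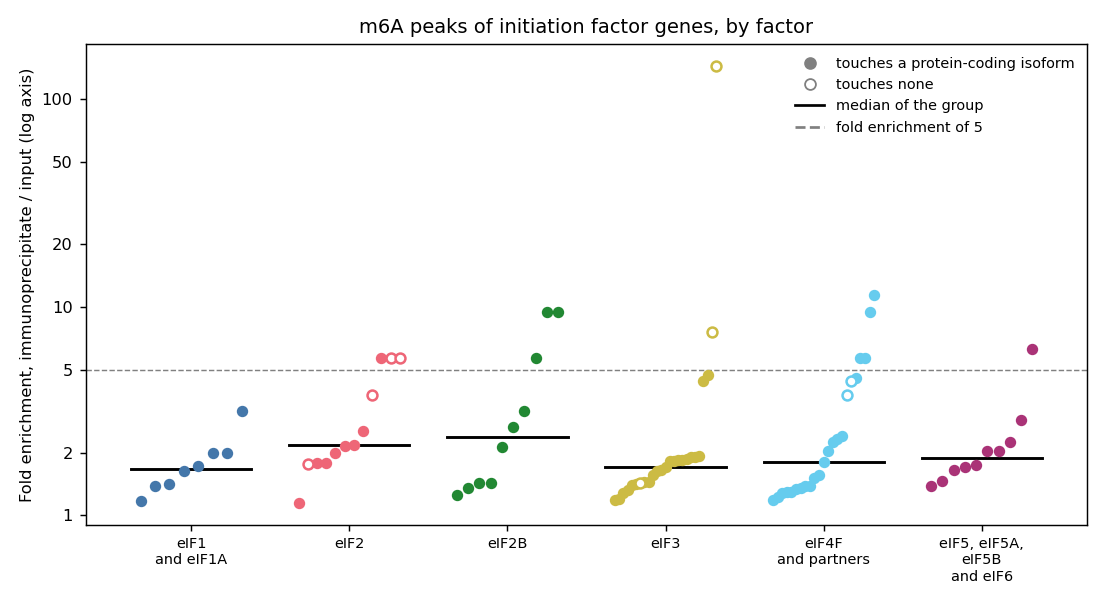
Fold enrichment (immunoprecipitate over input, log axis) of each peak, by the factor the gene belongs to. Filled circles touch an exon of a protein-coding isoform of the gene and open circles touch none, black lines are group medians (1.68, 2.17, 2.39, 1.71, 1.81 and 1.89 from left to right), and the dashed line is a fold enrichment of 5. The highest circle is Eif3i at 144.

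The eIF4 genes had 23 peaks in 11 of 13 genes, with a median fold enrichment of 1.81. Eif4a1 encodes the main helicase that unwinds 5' UTRs. Its peak (2.33, log10 p -133, chromosome 11, 69666936 to 69667653) covered 682 nt around the last exon and was the second most significant of the family. Its paralogues had weaker peaks, Eif4a2 with 1.22 (log10 p -7.25) at 1446 nt past the stop codon, and Eif4a3, a core protein of the exon junction complex, with 1.52 (log10 p -11.7) at 18 nt past it. A further 2 peaks not assigned to Eif4a2 touched its exons, and the first of them (1.33, log10 p -2.17) was assigned to Rfc4 on the opposite strand. Eif4a1 also had a weak peak at its 5' end (3.79, log10 p -1.34) that touched no protein-coding isoform.

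The 3 scaffold genes of the eIF4G family each had 2 peaks. Those of Eif4g1 and Eif4g3 shared a position, since a peak of Eif4g1 (2.41, log10 p -45.2, 511 exonic nt) was centred 138 nt past the stop codon, and a peak of Eif4g3 (1.36, log10 p -7.02, 181 exonic nt) 136 nt past it. The stronger peak of Eif4g3 (2.26, log10 p -24.3) lay further on, at 600 nt, and Eif4g1 had in addition a peak in exon 23 of 32 (1.3, log10 p -5.74). Eif4g2 encodes DAP5, which lacks the binding site for eIF4E and works without the cap. Its peaks were both distal, at 549 and 1658 nt past the stop codon (1.34, log10 p -14.0, and 2.03, log10 p -24.2).

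Eif4e, which encodes the cap-binding protein and is held back by the 4E-BPs, had 3 peaks, of 11.4-fold, 1.28-fold and 5.69-fold enrichment, with a log10 p of -2.92, -2.84 and -2.31. Eif4e2, a repressive relative, had 3 peaks, of which the most significant lay in the coding sequence (1.56, log10 p -20.7) and the one with the highest fold enrichment (4.55, log10 p -7.35) in the distal 3' UTR. Eif4enif1 encodes 4E-T, which ties eIF4E to mRNA decay, and its only peak (9.48, log10 p -1.69) touched a protein-coding isoform other than the longest. Both helicase cofactors had 3' UTR peaks. Eif4b had a single one (1.81, log10 p -29.5) at 1675 nt past the stop codon, and Eif4h had 3 of its 5 peaks in the last exon, with fold enrichments of 1.38, 1.29 and 1.39 at 3 nt before and 848 and 1489 nt past the end of the coding sequence (log10 p -7.07, -4.94 and -6.3). Its other peaks lay in the 5' UTR (5.69, log10 p -1.64) and on a retained-intron transcript (4.43, log10 p -1.63).

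All 5 genes of the late factors had a peak, 10 in all. Each of the 10 peaks had a p-value under 0.001, as did 78.4% of the 88 peaks and 62.3% of the peaks of all protein-coding genes. Eif5a encodes the hypusine-bearing factor that helps the ribosome through difficult peptides, and its 3' UTR peak (1.71, log10 p -134, chromosome 11, 69916714 to 69917249) was the most significant of all 48 genes. It also had 2 peaks upstream of the start codon, with fold enrichments of 2.24 and 2.03 (log10 p -14.8 and -3.27). The paralogue Eif5a2 differed, with a single peak of 6.32 (log10 p -4.18) centred 4271 nt past the stop codon. Eif6 had 3 peaks, at the end of the mRNA (2.86, log10 p -34), in exon 2 (1.66, log10 p -3.52) and in the 5' UTR (1.39, log10 p -8.14). Eif5, the GTPase activator of eIF2, had its main peak (1.75, log10 p -23.2) at 1715 nt past the stop codon and a smaller one (1.47, log10 p -4.28) in the coding sequence, and Eif5b had a peak of 539 exonic nt centred 7 nt past it (2.03, log10 p -20.4).

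The position of the peaks was compared with that of all coding genes. Of the 88 peaks, 75 in 41 genes could be placed on the longest coding transcript by the centre of their exonic part. The 3' UTR held 45 of the 75 centres (60%, 48.7 to 70.3), against 56.5% of 15715 placed peaks of all protein-coding genes. The coding sequence held 21 (28%, 19.1 to 39.0), against 33.6%, and the 5' UTR 9 (12.0%, 6.44 to 21.3), against 9.95%. For all 3 regions the share in all coding genes lay within the interval of the initiation factor genes.

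Centres within 200 nt of the stop codon were more frequent, 29 of 75 (38.7%, 28.5 to 50), against 22.3% of all placed peaks. They came from 27 genes. Peaks that ran across the end of the coding sequence numbered 20 of 75, in 19 genes (26.7%, 18.0 to 37.6), and the 20% of all placed peaks that did so lay within that interval. The genes also had shorter 3' UTRs, with a median of 735 nt in those with a peak, against 1125 nt in all coding genes with a peak. Among genes with a 3' UTR of at most 300 nt the share near the stop codon was 10 of 16 (62.5%, 38.6 to 81.5), against 49.7% for all coding genes. Over 300 and up to 1000 nt it was 12 of 24 (50%, 31.4 to 68.6), against 25.4%, and above 1000 nt 7 of 35 (20%, 10 to 35.9), against 13.0%. The share was thus above that of all coding genes in each class, while only in the middle class did the interval lie wholly above it. The intervals treat peaks as independent, but the 24 peaks of the middle class came from 13 genes, so the intervals may be too narrow. The shares are descriptions of 1 list, with no test of the difference.

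**Figure D3:**
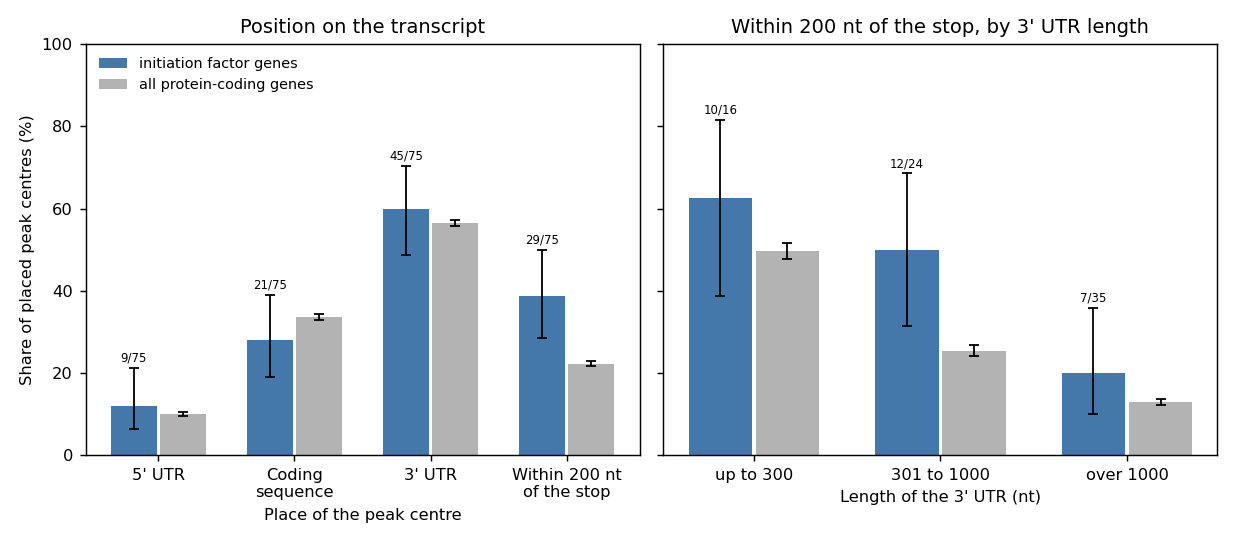
Left, share of placed peak centres in each region of the transcript and within 200 nt of the stop codon, for initiation factor genes (blue, 75 centres) and all protein-coding genes (grey, 15715 centres). Right, share within 200 nt of the stop codon by length of the 3' UTR. Bars start at 0, error bars are 95% Wilson intervals, and counts stand above the blue bars, of which 38.7% of all centres lay near the stop codon.

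Along single transcripts the peaks formed a few patterns. The exonic spans had a median length of 210 nt (interquartile range 121 to 334), close to the 203 nt of all placed peaks, and together they covered a median of 14.1% of a transcript, from 3.09% at Eif3b to all of Eif3m. At Eif3m a wide peak of 18029 genomic nt (1.56, log10 p -4.73) spanned most of the gene, and all exons within it are counted as covered. Peaks with their centre in the 5' UTR were found in 8 genes (Eif1, Eif1ax, Eif2b1, Eif2s1, Eif3k, Eif4h, Eif5a and Eif6), with a median fold enrichment of 2.24. Centres in the coding sequence had a median of 1.56 and those in the 3' UTR 1.79, and the medians over all coding genes were 4.0, 2.53 and 2.02 in the same order of regions.

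**Figure D4:**
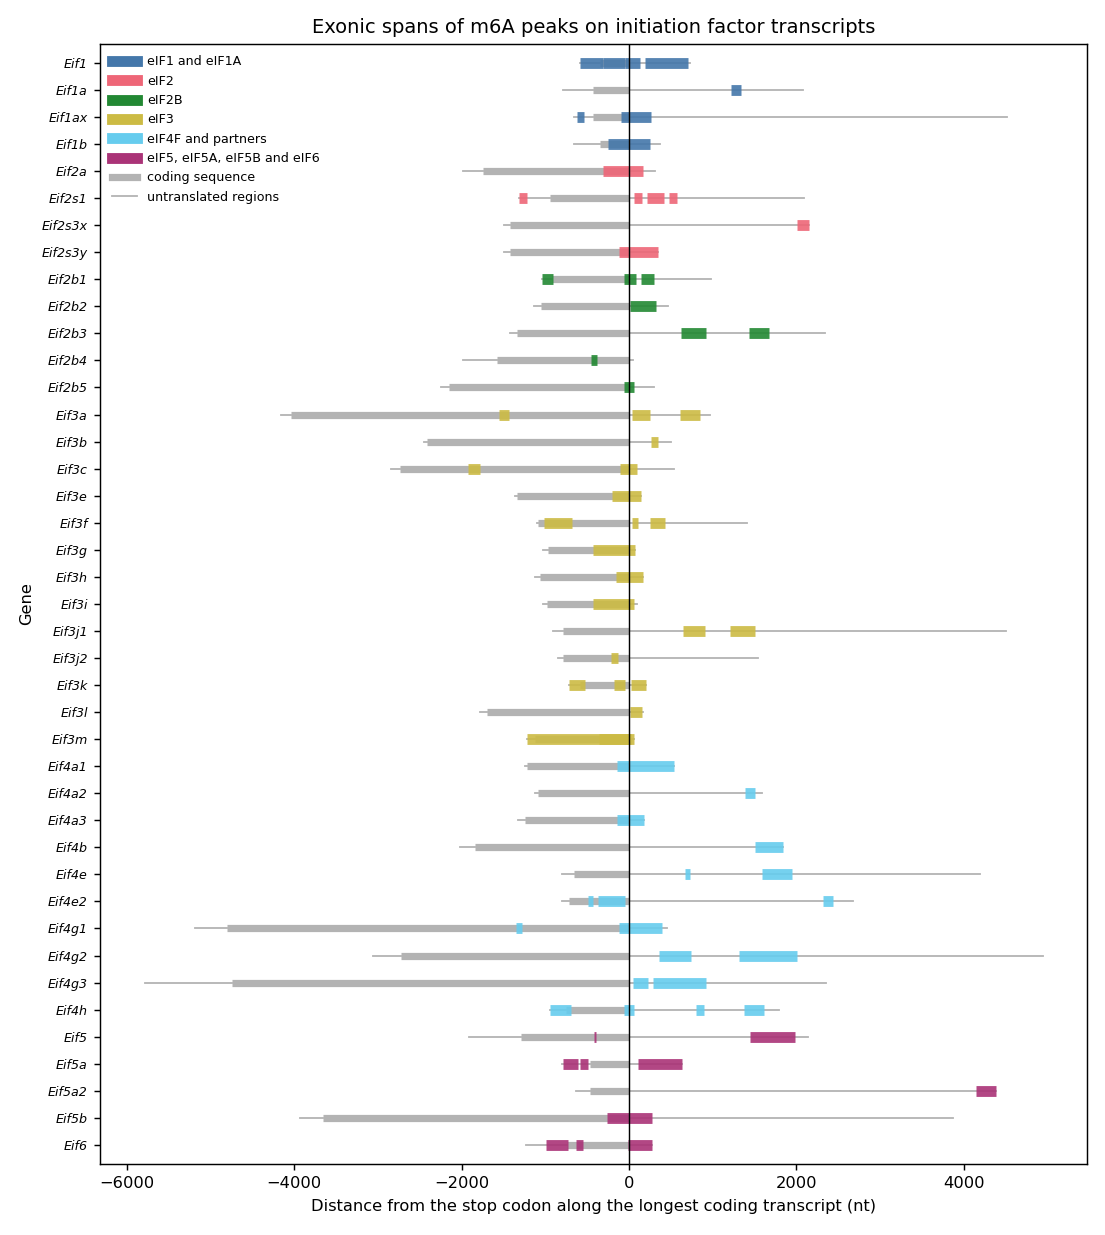
Exonic spans of the 75 placed peaks (coloured bars) on the longest coding transcript of each of 41 genes, aligned at the stop codon, in nt along the transcript. Thick grey lines are coding sequence and thin grey lines untranslated regions. Coloured bars cluster at the stop codon in eIF3 genes, while those of Eif2s3x, Eif4a2, Eif4b and Eif5a2 lie near the 3' end.

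Enrichment of 5-fold or more, the limit by which the study picked genes for its pathway analysis, was reached by 13 peaks in 9 genes, which was 20.9% of the 43 genes with a peak (11.4 to 35.2), against 43.4% of all protein-coding genes with a peak. The genes were Eif2a, Eif2b3, Eif2s1, Eif3i, Eif3m, Eif4e, Eif4enif1, Eif4h and Eif5a2. Of the 13 peaks 4, in Eif2b3, Eif3i, Eif3m and Eif5a2, had a p-value under 0.001. Over all protein-coding genes 2903 of 5385 peaks of 5-fold or more did. Of the 13, 6 touched the longest coding transcript, 3 another protein-coding isoform only and 4 no protein-coding isoform. The same split over all coding genes is not given here. The same fold values recurred: 6 of the 13 were listed as 5.69, a value found in 560 peaks of the whole list, and 3 as 9.48, found in 1024. A 5-fold peak that lay on the longest coding transcript and had a p-value under 0.001 was found only in Eif5a2 among the 48 genes.

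Because several of these genes have close copies, the sequence under the placed peaks was searched in the transcripts of all other genes. In 60 of 73 peaks of at least 50 nt, no stretch of 50 nt occurred in another gene. In 5 peaks of 3 genes at least 50% of the stretches did. They were the peaks of Eif3j1 (72.4% and 80.1%) and Eif3j2 (100%), each shared with the other gene, the coding-sequence peak of Eif1 (100%, shared with several copies) and the Eif1 peak at the stop codon (69.7%). Values for these 5 peaks are uncertain, since it is not stated how reads with several positions were counted. The shares were 40.7% at Eif3m, 21.4% at Eif3h, 17.8% at Eif4a3, 14.7% at Eif4a1 and 8.30% at Eif3e for their peaks at the stop codon, and 0 at the main peaks of Eif5a, Eif4g1 and Eif6.

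The GGAC sequence printed for 8 genes was not denser under the peaks than in the rest of the transcripts. There were 63 GGAC sites in 19527 nt of placed peaks, or 3.23 per kb (Poisson interval 2.48 to 4.13), and 4.24 per kb (3.86 to 4.65) in the rest of the same 41 transcripts. Over all protein-coding genes the densities were 4.03 and 4.12 per kb. The longer GGACT occurred 20 times under the peaks, at 1.02 per kb (0.626 to 1.58), against 1.19 elsewhere in the transcripts. Both strings of letters were searched on the strand of the gene only, and every GGACT is also a GGAC. At least 1 GGAC was present in 37 of 75 peaks (49.3%), against 54.5% of all placed peaks. By exonic length the shares were 27.6% and 29.3% up to 150 nt, 59.1% and 55.5% over 150 and up to 300 nt, and 60% and 75.1% over 300 and up to 600 nt, and 100% (4 peaks) and 96.4% above that, for initiation factor genes and all coding genes, respectively. The most GGAC sites under a single peak were 5, in the 3' UTR peak of Eif4g1, followed by 4 each at Eif3g, Eif4a3, Eif5b and the wide peak of Eif3m.

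Other genes of translation were counted from lists. Of 40 related genes 33 had a peak, and 46.3% of all protein-coding genes did. The same share is the background for the counts per list below. The median fold enrichment was 1.97 over 68 peaks, against 2.37 over the peaks of all protein-coding genes. Of the 33 genes 6 (18.2%) had a 5-fold peak, on the background of 43.4% given for all coding genes. Among kinases and phosphatase subunits of eIF2 4 of 6 genes had a peak, with the most significant at Ppp1r15a (GADD34, 1.2, log10 p -21.8), Eif2ak2 (PKR, 2.84, log10 p -4.34) and Eif2ak4 (GCN2, 2.39, log10 p -3.68). Regulators of eIF4 had peaks in 8 of 9 genes and no 5-fold peak. There the most significant were Mknk2, a kinase of eIF4E (1.83, log10 p -68.0), Pdcd4, an inhibitor of eIF4A (2.02, log10 p -55.7), and the S6 kinase Rps6kb2 (1.44, log10 p -25.9).

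All 6 poly(A)-binding proteins and partners had a peak, led by Pabpc1, the main cytoplasmic poly(A)-binding protein (2.66, log10 p -111), its inhibitor Paip2b (2.96, log10 p -14.7) and its partner Paip1 (3.45, log10 p -7.34). Recycling, scanning and reinitiation factors had a peak in 8 of 9 genes, with the most significant at Abcf1 (2.34, log10 p -31.1), Bzw1 (1.93, log10 p -30.5) and Abce1, which splits ribosomes (34.1, log10 p -26.0). Elongation and release factors had a peak in 7 of 10 genes. Eef2, which moves the ribosome along the mRNA, carried the most significant peak of all the translation genes examined (3.71, log10 p -1160), above Eef1b2 (1.85, log10 p -53.2) and Eef1a1 (1.09, log10 p -35.5).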

How the data were processed

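MeRIP-seq was performed on splenic NK cells of C57BL/6 mice, with 2 m6A immunoprecipitates and 2 input libraries per the labels. The authors trimmed the reads, mapped them with HISAT2 to mouse GRCm38, called peaks with exomePeak and annotated them with ChIPseeker, and the depth is not given in the sources used here. The deposited fold enrichment is a ratio of immunoprecipitate over input. The deposited significance is a score, read as the log10 of an unadjusted p-value, since its weakest value is -1.30. The only file is a list for all libraries, with 0 columns per sample, and how replicates were combined is not stated. Of 20751 rows, 24 exact repeats were dropped.

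Gene models were those of GENCODE M21 (GRCm38). The exonic part of a peak was taken on the longest coding transcript, with all exons inside the span, and its centre gave the region. Peaks that touched no exon of that transcript were not placed. Near the stop codon means within 200 nt. Shares have Wilson intervals, medians order-statistic intervals and densities exact Poisson intervals. Analyses used Python 3.11.15, pandas 2.3.3 and scipy 1.17.1. Placement was tested on simulated data. No test was run, since there is 1 value per peak. Members and lists were chosen with earlier results of these data known. By the rule for named genes, each factor group is given by its most significant and strongest peaks, with every gene with a strong peak, several peaks or none, and the related lists by their 3 most significant genes at most. Other values were chosen after they were seen. A further set of cell type markers that was examined is not reported here. Alternatives changed the peak threshold, the assignment, the transcript model, the position, the window and the motif.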

Additional observations from a re-analysis of the deposited data

How the results depend on the processing

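Of 27 alternatives for 7 results, 18 stayed within 1.5 times the count or within the interval, and 9 moved. Keeping peaks of 2-fold or more, the genes with a peak fell from 43 to 25 and the peaks from 88 to 36. Taking only the strongest peak per gene, the median fold enrichment was 2.18 (3.79 for all coding genes). Genes with a peak above the fold limit made up 37.2% with a limit of 3, 4.65% with a limit of 10, and 10.3% with the limit of 5 among peaks with a p-value under 0.001, against 56.4%, 27.5% and 35.0% of all coding genes. With the centre of the genomic span 72% of centres lay in the 3' UTR (73.6% for all). Peaks whose genomic centre fell outside the exons drop out there, so this share rests on fewer peaks than the main one. Of the centres of the exonic part, 18.7% lay within 100 nt of the stop codon (12.6% for all). GGACT occurred at 1.02 per kb. The cause of these shifts was not tested, beyond the changed thresholds, window and motif themselves. Counting peaks assigned to another gene was chosen after seeing the data. No paired analysis was possible because the list gives no value per sample, and for the same reason no replicate could be left out. Depth is unknown, so it limits these values to an extent that could not be computed.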

Other observations

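Processed pseudogenes named after initiation factors were examined as well, after the other values were seen. Of 10 such genes, 2 had a peak. The share of all pseudogenes with a peak is not given here, so this count has no background. Eif3s6-ps4 (ENSMUSG00000106885, chromosome 6, 19317215 to 19319378), named after Eif3e under its older symbol, carried a peak of 209-fold enrichment (log10 p -49.1) that covered 100% of the gene. The fold enrichment of the peak of Eif3e itself was 1.83 at a log10 p of -50. Eif5al3-ps (ENSMUSG00000043618, chromosome 5, 90132229 to 90132675) had a fold enrichment of 5.69 at a log10 p of -1.31, again over 100% of its length, and the peak of Eif5a in the 3' UTR had 1.71 at -134. Of the 50 nt stretches under the Eif3e peak, 8.30% occurred in Eif3s6-ps1, Eif3s6-ps2 or Eif3s6-ps3, and none in Eif3s6-ps4. No stretch under the peaks of Eif5a occurred in another gene. Only sequence under placed peaks was searched in this way. It is not stated how reads with several positions were counted, so the folds of a pseudogene and its parent gene may not be comparable. They do not show that the pseudogene is more methylated, and the cause of the high folds was not tested.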
